A study of Arabidopsis thaliana with 12 samples.

Results

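The genes described here are the 53 nuclear genes for the light-harvesting antenna and the photosynthetic electron transport chain of *Arabidopsis thaliana*, out of 37336 genes in the table. They were chosen by gene ID: *LHCA1* to *LHCA6*, the *LHCB1* to *LHCB7* genes, the nuclear *PSA* and *PSB* subunit genes, *PETC*, the plastocyanins, 2 ferredoxins, the leaf ferredoxin-NADP+ reductases, *ATPC1* and *ATPD*. The study sequenced RNA of mature leaves from 4-week-old plants, each sample pooled from at least 3 plants. The groups were *rtnlb16-1* under LD, Col-0 under LD, *rtnlb16-1* under CLL and Col-0 under CLL, with 3 libraries each. LD (long day) had 16 h of light and 8 h of dark at about 80 µmol per second and square metre, and CLL (continuous low light) had no dark period at about 50, so the regimes differ in photoperiod and in intensity. The growth text of the labels writes the LD ratio as dark to light and the sample labels as light to dark, and the order of the sample labels was taken. All plants share the Col-0 background. *rtnlb16-1* is the T-DNA line Salk_122275 after its chromosome 4 insertion was segregated away. Its remaining insertion, on chromosome 3 between *RTNLB16* and *MSD1*, removes the start of *RTNLB16* isoform 7. It is a single insertion line, and *RTNLB16* RNA was higher in it, not lower. LD libraries carry the numbers 47 to 52 in their labels and CLL libraries 65 to 70, with no word on what the numbers stand for. All libraries shared the same sequencing lane.

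Light-harvesting proteins bind chlorophyll and pass the absorbed energy to the reaction centres of photosystem I (PSI) and photosystem II (PSII). LHCI proteins surround PSI, and LHCII trimers and the monomeric LHCB proteins surround PSII. Plastocyanin, ferredoxin and ferredoxin-NADP+ reductase carry the electrons onwards, and the chloroplast ATP synthase uses the proton gradient. In leaves these nuclear genes are among the most strongly transcribed, they respond to light, and their products are imported into the chloroplast.

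Libraries held 25954730 to 44747661 assigned reads, and the table gives normalized counts, the read counts of the authors after division by a size factor for that library. *RTNLB16* (AT3G10915) checked the labels: its normalized counts were 12665, 7577 and 8231 in *rtnlb16-1* and 769, 876 and 1016 in Col-0 under LD, and 1543 to 2252 in *rtnlb16-1* and 640 to 954 in Col-0 under CLL. Libraries 68 and 69, both *rtnlb16-1* under CLL, were much closer to each other than any other pair, and counts with both averaged into 1 sample are given where they differ. Markers of other tissues moved with the genotype. The summed normalized count of 7 shoot meristem markers was 523 to 983 in *rtnlb16-1* and 9.60 to 22.9 in Col-0 under LD, and 502 to 531 in *rtnlb16-1* and 32.0 to 482 in Col-0 under CLL. The sum of 7 flower markers was 338 to 795 in *rtnlb16-1* and 84.4 to 106 in Col-0 under LD, and 272 to 534 in *rtnlb16-1* and 38.3 to 69.3 in Col-0 under CLL. *STM* and *AP1*, defining markers of shoot meristem and flower, were at 0 in all Col-0 libraries under LD. The limma test described below called 6 of the 7 meristem markers and 6 of the 7 flower markers higher in *rtnlb16-1* under LD, where 6.67% of all tested genes were called higher. Under CLL it called 0 and 5 of them higher, against 0.846% of all genes. The 4 leaf blade markers, *RBCS1A*, *RCA*, *CA1* and *GLDP1*, were present in all libraries with sums of 742378 to 1041780 in *rtnlb16-1* and 1471460 to 2534200 in Col-0 under LD, and 545226 to 730984 in *rtnlb16-1* and 855110 to 1048800 in Col-0 under CLL. Their median log2 fold changes were -1.02 under LD and -0.41 under CLL, and limma called 0 of them in either regime. The edgeR and DESeq2 tests, also described below, called 2 and 3 lower under LD (8.21% and 8.67% of all genes). The sum of 4 phloem markers was 6902 to 11939 in *rtnlb16-1* and 12431 to 18243 in Col-0 under LD. There limma called 2 of them (*SUC2* and *SWEET12*) lower, against 6.18% of all genes. Under CLL the sum was 12362 to 13316 in *rtnlb16-1* and 11425 to 15266 in Col-0, with 0 called. The groups overlapped under CLL and not under LD. The sum of 4 senescence markers was 735 to 1133 in *rtnlb16-1* and 632 to 832 in Col-0 under LD, with overlap, and 2975 to 4586 in *rtnlb16-1* and 1828 to 2721 in Col-0 under CLL, without overlap. For this list limma called 0 of them in either regime. The part of these tissues and states in the results below was not tested, and in bulk leaf RNA fewer cells of a type and less RNA per cell cannot be told apart.

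Of the 53 genes, 52 were above 0 in at least 1 library. *LHCB1.5* (AT2G34420) was listed at 0 in all 12 libraries. In the annotation used here for positions (TAIR10.1), 0% of its exonic bases are free of another gene: the whole gene, on chromosome 2 from 14522524 to 14523568 on the minus strand, lies within the long non-coding RNA gene AT2G08665 on the opposite strand, which was also listed at 0 in every library. Whether reads were counted by strand is not given in the sources used here, so the 0 is no measure of this gene's RNA. A gene on the opposite strand overlaps 16 of the 52 members with reads in part. Under 80% of the exonic bases are free in 6 of them, *PSAG* (38.6% of exonic bases free), *PSAH1* (46.7%), *LHCB2.3* (59.4%), *PSAE1* (65.9%), *PSAH2* (75.2%) and *LHCB6* (79.6%). In the other 10, *LHCB3*, *FNR1*, *PSAE2*, *LHCA5*, *LHCB1.3*, *PSBR*, *PSBP1*, *LHCA4*, *PSAN* and *LHCB4.2*, over 80% are free, and at most 96.8%. If counting did not use strand, reads in these overlaps cannot be assigned to either gene. The study kept only reads assigned unambiguously to a single feature, so such reads would then be missing from the counts. *FD1*, *PSBP1* and *PSAD2* also share some exonic bases with a gene on the same strand.

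The 52 detected genes together took 15.2, 12.1 and 14.5% of the assigned reads in the *rtnlb16-1* libraries and 22.0, 25.6 and 23.5% in the Col-0 libraries under LD. Under CLL they took 7.82, 8.03 and 7.31% in *rtnlb16-1* and 10.7, 13.4 and 14.2% in Col-0. Every *rtnlb16-1* library lay below every Col-0 library of the same light regime, and in an exact two-sided permutation test 3 libraries against 3 cannot go below p = 0.1. Trimeric LHCII took the most reads, 5.19 ± 1.21% in *rtnlb16-1* and 8.15 ± 1.43% in Col-0 under LD (SD, n = 3 each). The LHCB4 to LHCB7 group took 1.66 ± 0.181% in *rtnlb16-1* and 3.06 ± 0.0504% in Col-0 under LD (SD, n = 3 each). Reads of genes encoded in the plastid genome differed less, 0.942 to 1.14% in *rtnlb16-1* and 1.07 to 1.51% in Col-0 under LD, with overlap between the groups. Under CLL they took 1.29 to 1.58% in *rtnlb16-1* and 1.29 to 1.58% in Col-0. How fully the libraries captured plastid RNA was not tested. Per kilobase of exon the mean normalized count over the 12 libraries spanned 838 for *LHCB7* to 557707 for *LHCB1.3*, and *PSBR* (364878) and *LHCB1.1* (210933) followed *LHCB1.3*.

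**Figure D1:**
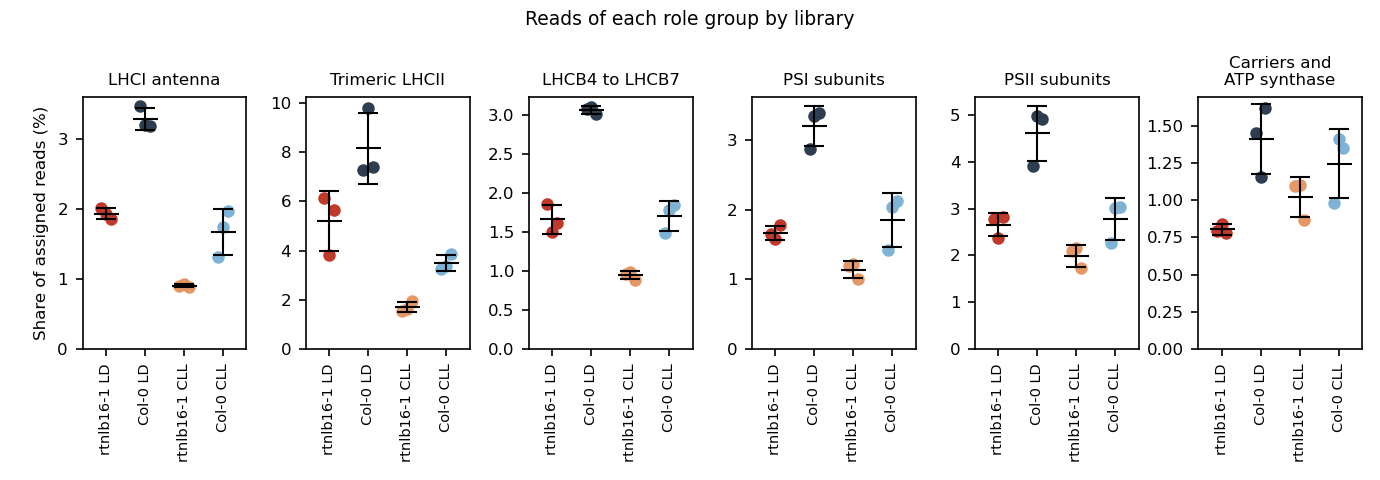
Share of assigned reads (%, y axis) taken by each of the 6 role groups. Points are libraries, the long bars are means and the error bars SD (n = 3), for *rtnlb16-1* LD, Col-0 LD, *rtnlb16-1* CLL and Col-0 CLL from left to right. For trimeric LHCII the *rtnlb16-1* libraries under LD lie between 3.82 and 6.12% and the Col-0 libraries between 7.28 and 9.80%.

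Under LD, 51 of the 52 genes had a lower mean log2 value in *rtnlb16-1* than in Col-0, and the median log2 fold change was -1.304, against 0.00 for all 30388 genes tested. The test was limma on log2 of the normalized count plus 1, in 1 fit over the 4 groups, and a gene was called at a Benjamini-Hochberg adjusted p under 0.01 with no minimum fold. It called 24 of the 52 genes lower and 0 higher, where 6.18% of all genes were called lower. On the recovered reads edgeR called 46 lower (8.21% of all genes) and DESeq2 48 (8.67% of all genes). All libraries of *rtnlb16-1* lay below all libraries of Col-0 for 48 of the 52 genes, which holds for 12.6% of all genes tested. The 4 genes with overlapping groups were *LHCB1.1*, *LHCB7*, *FD1* and *FNR2*. A limma fit of the 6 LD libraries alone called 0 of the 52, where 182 of all 30388 genes were called lower. With libraries 68 and 69 averaged 15 were called, where 1445 of all genes were called lower. Leaving out 1 library left 12 to 24 calls, where 1171 to 1575 of all genes were called lower. There were 12 without *rtnlb16-1* LD 52 or *rtnlb16-1* CLL 68 and 13 without Col-0 LD 49. There were 14 without *rtnlb16-1* CLL 69 or Col-0 LD 48 and 15 without *rtnlb16-1* LD 51. Of the 24 genes, 11 were called in all 12 such fits. When values were scaled by total assigned reads, the median of all genes moved to 0.33 and that of the members to -0.84.

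Under CLL, 51 of the 52 genes again had the lower mean log2 value in *rtnlb16-1*, with a median log2 fold change of -0.84, against 0.03 for all genes. The only gene called by limma was *LHCB2.3*, where 0.731% of all genes were called lower, and it was not called with libraries 68 and 69 averaged. It was called in 6 of the 12 fits without 1 library, and 0 members were called without *rtnlb16-1* LD 52, *rtnlb16-1* CLL 68, 69 or 70, or Col-0 CLL 66 or 67, against 2 without Col-0 LD 48. Over these 12 fits 48 to 193 of all 30388 genes were called lower, and 84 with libraries 68 and 69 averaged. At an unadjusted p under 0.05, limma had 34 lower and 0 higher. The share of all genes at an unadjusted p was not counted. Such counts, here and below, therefore cannot be judged against a background. edgeR called 19 lower (2.26% of all genes) and DESeq2 24 (2.36% of all genes). The groups did not overlap for 39 genes, against 16.9% of all genes tested. Of the Col-0 CLL libraries, 65 held the lowest value for 50 of the 52 genes. Scaled by total assigned reads, the median of all genes was 0.24 and that of the members -0.61.

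**Figure D2:**
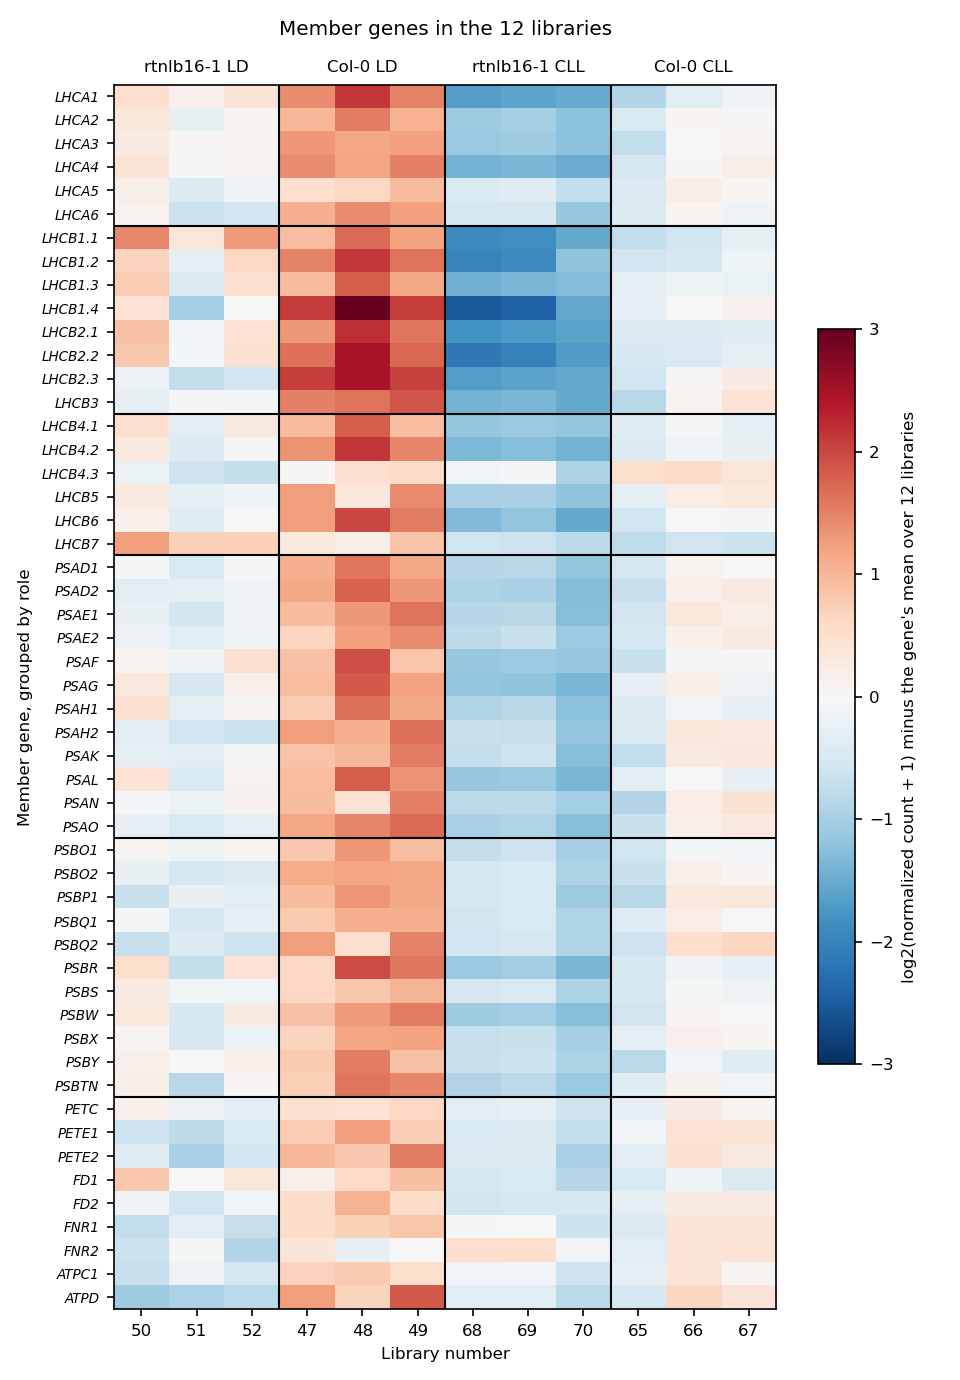
Heat map of the 52 detected genes (rows, grouped by role) in the 12 libraries (columns). Colour is log2 of the normalized count plus 1 minus the gene's mean over the 12 libraries. Within Col-0 CLL, library 65 is the lowest column for 50 of the 52 genes, and within *rtnlb16-1* LD, library 51 is the lowest for 39.

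Whether the genotype difference itself changed with the light regime was tested with the interaction term. limma called 0 of the 52 genes (0.533% of all genes were called lower), with 7 lower and 0 higher at an unadjusted p under 0.05: *LHCA6*, *LHCB2.3*, *PSAH2*, *PSBO2*, *PETE1*, *FNR1* and *ATPD*. The share of all genes at that unadjusted p was not counted. edgeR and DESeq2 each called *ATPD* and no other member, with adjusted p of 0.00257 from edgeR and 0.00999 from DESeq2, where 1.99% and 1.83% of all genes were called lower. The interaction value was below 0 for 45 of the 52 genes, with a median of -0.46 against 0.00 for all genes. By role group the median was -0.06 for trimeric LHCII, -0.20 for LHCI, -0.10 for LHCB4 to LHCB7, -0.52 for PSI, -0.64 for PSII and -0.75 for carriers and ATP synthase. Scaled by total assigned reads the members' median was -0.23, with 0.17 for all genes.

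**Figure D3:**
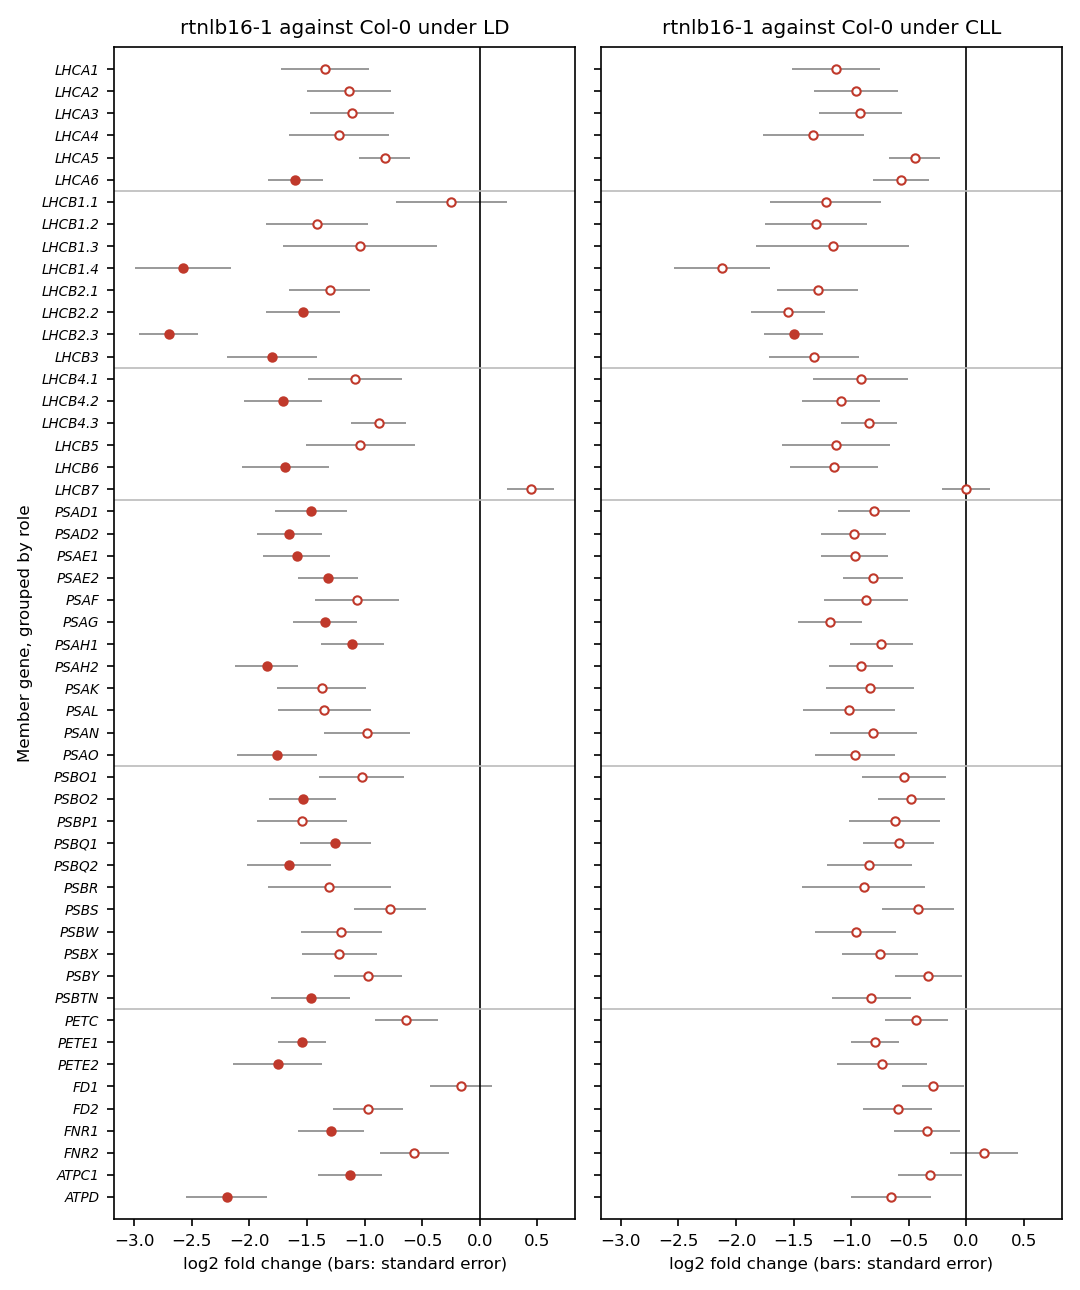
Log2 fold change of *rtnlb16-1* against Col-0 for each of the 52 genes (rows, grouped by role) under LD (left) and CLL (right), with the standard error from limma as bars. Filled points passed an adjusted p of 0.01. Under LD all points but that of *LHCB7* lie below 0, and *LHCB2.3* (-2.70), *LHCB1.4* (-2.58) and *ATPD* (-2.197) lie furthest from it.

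Trimeric LHCII, the main antenna of PSII, held the members with the largest differences between the genotypes under LD, *LHCB2.3* and *LHCB1.4*, and also *LHCB1.1*, whose groups overlapped. limma called 4 of its 8 detected genes lower under LD (*LHCB1.4*, *LHCB2.2*, *LHCB2.3* and *LHCB3*) and 1 under CLL, and the medians were -1.47 under LD and -1.32 under CLL. edgeR and DESeq2 called 7 of the 8 under LD and all 8 under CLL. *LHCB2.3* (AT3G27690) had normalized counts of 16487, 11337 and 12613 in *rtnlb16-1* and 79563, 104284 and 78122 in Col-0 under LD, and 5874, 6130 and 6477 in *rtnlb16-1* and 12482, 19144 and 22099 in Col-0 under CLL. The *rtnlb16-1* libraries were lower in both regimes without overlap, and under LD the highest of them was below Col-0 CLL libraries 66 and 67. Its log2 fold change was -2.70 (standard error 0.26, limma adjusted p = 6.61e-06) under LD and -1.50 (standard error 0.26, limma adjusted p = 0.00418) under CLL. *LHCB1.4* (AT2G34430), which encodes the same protein class as the other *LHCB1* copies, had 68116, 25042 and 51184 in *rtnlb16-1* and 217711, 402001 and 211874 in Col-0 under LD, and 8825, 9451 and 17379 in *rtnlb16-1* and 42960, 50257 and 55706 in Col-0 under CLL. Its *rtnlb16-1* values under LD spread widely and enclosed all Col-0 values of CLL. The log2 fold change was -2.58 (standard error 0.42, limma adjusted p = 0.000512) under LD and -2.12 (standard error 0.42, limma adjusted p = 0.0101) under CLL, so it just missed the threshold under CLL. *LHCB3*, the third kind of subunit in the trimer, had 83088, 98346 and 96862 in *rtnlb16-1* and 289928, 312046 and 374651 in Col-0 under LD, and 38082, 39476 and 35154 in *rtnlb16-1* and 57076, 106741 and 135887 in Col-0 under CLL. Groups did not overlap in either regime, and the log2 fold changes were -1.81 (standard error 0.39, limma adjusted p = 0.00403) under LD and -1.32 (standard error 0.39, limma adjusted p = 0.0802) under CLL. *LHCB2.2*, whose protein is phosphorylated when antenna moves between photosystems, had 78609, 43608 and 61322 in *rtnlb16-1* and 139490, 248968 and 147628 in Col-0 under LD, and 10080, 10962 and 13707 in *rtnlb16-1* and 32187, 32673 and 36276 in Col-0 under CLL. Its difference was nearly the same size in both regimes, -1.54 (standard error 0.32, limma adjusted p = 0.00329) under LD and -1.55 (standard error 0.32, limma adjusted p = 0.0141) under CLL. The calls of *LHCB2.3* and *LHCB1.4* under LD were kept in all 12 fits without 1 library, while *LHCB2.2* and *LHCB3* were each called in 7 of them.

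The copies of *LHCB1* did not move alike. *LHCB1.1* and *LHCB1.2* lie in the same cluster as *LHCB1.3* on chromosome 1 and were picked for this description after their values were seen. *LHCB1.1* (AT1G29920) had 535561, 255356 and 477571 in *rtnlb16-1* and 373608, 642467 and 454970 in Col-0 under LD, with overlapping groups and a log2 fold change of -0.25 (standard error 0.48, limma adjusted p = 0.834). Its relative *LHCB1.2* (AT1G29910) had 222855, 112569 and 211265 in *rtnlb16-1* and 387222, 602558 and 428472 in Col-0 under LD, without overlap, and -1.41 (standard error 0.44, limma adjusted p = 0.0344). The ratio of *LHCB1.1* to *LHCB1.2* was therefore 2.40, 2.27 and 2.26 in *rtnlb16-1* and 0.965, 1.07 and 1.06 in Col-0 under LD. Within a library such a ratio does not depend on the scaling. Under CLL the ratio was 1.52, 1.51 and 1.14 in *rtnlb16-1* and 1.29, 1.32 and 1.28 in Col-0, and the groups overlapped. The ratio of *LHCB1.4* to *LHCB1.2* went the other way, 0.306, 0.222 and 0.242 in *rtnlb16-1* and 0.562, 0.667 and 0.494 in Col-0 under LD, and 0.256, 0.258 and 0.289 in *rtnlb16-1* and 0.470, 0.506 and 0.440 in Col-0 under CLL. *LHCB2.3* over *LHCB2.1* was 0.131, 0.175 and 0.135 in *rtnlb16-1* and 0.466, 0.326 and 0.374 in Col-0 under LD, and under CLL it was 0.294, 0.293 and 0.286 in *rtnlb16-1* and 0.240, 0.377 and 0.421 in Col-0, with overlap. Of 16 such pairs compared, the log2 ratios gave the smallest p an exact two-sided permutation test allows here (0.1) for 10 pairs under LD and 6 under CLL, and none can pass a correction for 16 pairs. Some of the 16 pairs share a gene, so they are not independent of each other, and no share for other gene pairs was counted. Some reads can match another copy as well. The study counted only reads assigned unambiguously to a single feature, so such reads may be missing from these values. Of the 50-base stretches in the exons of *LHCB1.1*, 79.5% occur at a single place in the TAIR10.1 genome. That share was 89.4% for *LHCB1.2*, 70.5% for *LHCB2.2* and 76.5% for *LHCB2.1*. *LHCB1.3*, the most abundant member, had 919054, 399451 and 746366 in *rtnlb16-1* and 1048080, 1893832 and 1193593 in Col-0 under LD. Its groups did not overlap, but the *rtnlb16-1* library 50 was close to Col-0 library 47, and the difference of -1.04 (standard error 0.67, limma adjusted p = 0.327) did not pass the test.

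**Figure D4:**
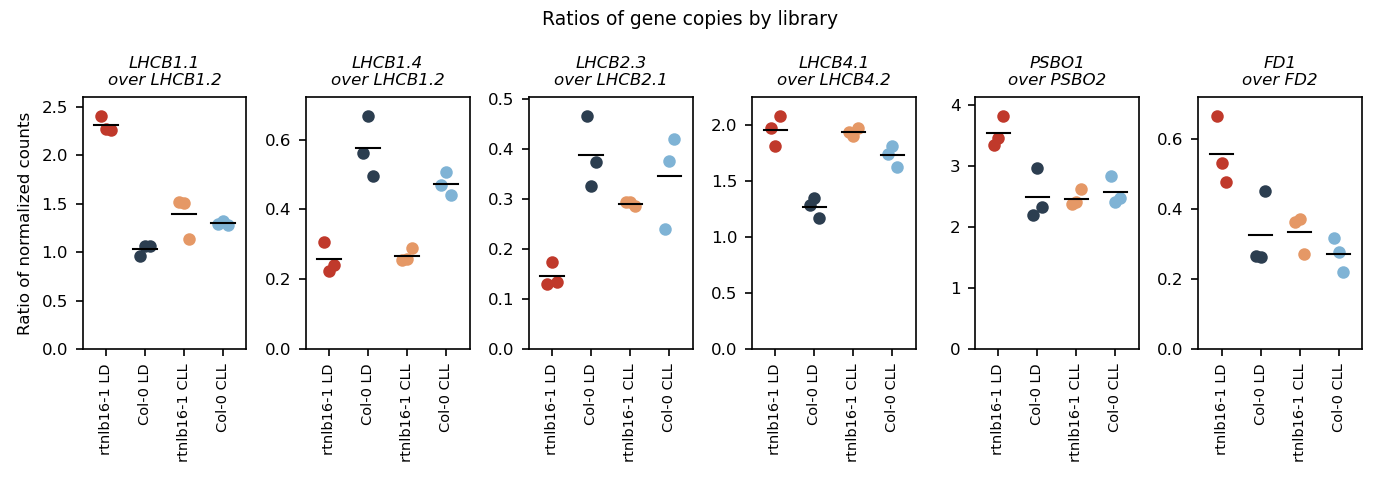
Ratio of normalized counts between 6 pairs of gene copies (panels) in each library (points), with group means as lines, for *rtnlb16-1* LD, Col-0 LD, *rtnlb16-1* CLL and Col-0 CLL from left to right. The *LHCB1.1* to *LHCB1.2* ratio lies at 2.26 to 2.40 in *rtnlb16-1* under LD and at 0.965 to 1.07 in Col-0 under LD.

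The 120 bases before the annotated start of the *LHCB1* and *LHCB2* copies with reads are shown because these copies differed in how far they moved. They were read from the TAIR10.1 genome, 5′ to 3′ on the gene's strand, and 0 annotated genes overlap any of the 7 stretches. Capitals mark AAAAATCT (a site bound by the clock factor CCA1), CCAATC, and the G-box CACGTG.
LHCB1.1 (chr1:10475970-10476089, minus strand): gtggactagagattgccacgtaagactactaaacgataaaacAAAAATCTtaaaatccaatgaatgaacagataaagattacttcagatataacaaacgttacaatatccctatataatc
LHCB1.2 (chr1:10473503-10473622, minus strand): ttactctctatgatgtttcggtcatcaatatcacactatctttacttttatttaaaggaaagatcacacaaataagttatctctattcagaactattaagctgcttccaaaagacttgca
LHCB1.3 (chr1:10477765-10477884, plus strand): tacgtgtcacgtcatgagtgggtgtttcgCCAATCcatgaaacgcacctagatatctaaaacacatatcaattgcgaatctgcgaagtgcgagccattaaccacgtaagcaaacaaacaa
LHCB1.4 (chr2:14524487-14524606, plus strand): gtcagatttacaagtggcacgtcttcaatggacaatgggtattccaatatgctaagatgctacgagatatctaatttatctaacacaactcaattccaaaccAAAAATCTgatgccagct
LHCB2.1 (chr2:1824481-1824600, minus strand): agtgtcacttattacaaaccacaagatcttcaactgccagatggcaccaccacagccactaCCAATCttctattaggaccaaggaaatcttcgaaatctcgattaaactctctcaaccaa
LHCB2.2 (chr2:1800473-1800592, minus strand): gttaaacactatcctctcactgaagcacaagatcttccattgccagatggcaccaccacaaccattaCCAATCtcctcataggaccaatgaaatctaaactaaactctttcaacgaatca
LHCB2.3 (chr3:10255786-10255905, plus strand): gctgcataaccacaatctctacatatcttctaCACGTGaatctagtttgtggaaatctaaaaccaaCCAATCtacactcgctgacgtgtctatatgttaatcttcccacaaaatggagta

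Counted in bases from the annotated start, AAAAATCT stands at -78 in *LHCB1.1*, whose groups overlapped under LD, and at -18 in *LHCB1.4*, which fell, while *LHCB1.2* holds none of these motifs. CCAATC stands at -59, -53 and -54 in *LHCB2.1*, *LHCB2.2* and *LHCB2.3*, and *LHCB2.3* also holds a G-box at -88. Over 250 bases before the start and on both strands, CCAATC was present in 14 of the 53 members (26.4%) and in 10.2% of the 27443 genes searched. Its 14 carriers include 5 of the 9 *LHCB1* to *LHCB3* genes, 3 of the 6 *LHCA* genes and 0 of the 12 PSI genes. CACGTG was present in 11 of the 53 members (20.8%) and 6.49% of all genes. GATAAG, the I-box, was in 12 members (22.6%) and 12.3% of all genes, AAAAATCT in 5 members (9.43%) and 6.69%, AACAATCT in 1 member (1.89%) and 1.83%, and TATAAA in 23 members (43.4%) and 47.4%. A match to these letters is a description and shows no binding.

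The monomeric and rarer *LHCB* genes, which link trimers to the PSII core, were lower in *rtnlb16-1* with the exception of *LHCB7*. limma called 2 of 6 lower under LD (*LHCB4.2* and *LHCB6*) and 0 under CLL, where 5 of the 6 were lower at an unadjusted p under 0.05, edgeR called 3 and DESeq2 3. The medians were -1.06 under LD and -1.003 under CLL. *LHCB4.2*, a copy of CP29, had 89615, 54954 and 71448 in *rtnlb16-1* and 187672, 323700 and 202352 in Col-0 under LD, and 28611, 30355 and 27552 in *rtnlb16-1* and 55085, 66730 and 62405 in Col-0 under CLL. Groups stood apart in both regimes, and the log2 fold changes were -1.71 (standard error 0.34, limma adjusted p = 0.00232) under LD and -1.09 (standard error 0.34, limma adjusted p = 0.101) under CLL. *LHCB4.1*, the other main CP29 copy, differed less under LD (-1.08, limma adjusted p = 0.0764), and its ratio to *LHCB4.2* was 1.98, 1.81 and 2.08 in *rtnlb16-1* and 1.29, 1.35 and 1.17 in Col-0 under LD, and 1.95, 1.91 and 1.98 in *rtnlb16-1* and 1.75, 1.82 and 1.63 in Col-0 under CLL, without overlap in either regime. *LHCB6* encodes CP24 and had 118812, 82904 and 105727 in *rtnlb16-1* and 257223, 428026 and 315504 in Col-0 under LD, and 43093, 47247 and 37189 in *rtnlb16-1* and 72373, 108546 and 105117 in Col-0 under CLL. Its values were again without overlap, at -1.69 (standard error 0.38, limma adjusted p = 0.00521) under LD and -1.15 (standard error 0.38, limma adjusted p = 0.12) under CLL. The LD call of *LHCB4.2* was kept in all 12 fits without 1 library and that of *LHCB6* in 7. *LHCB5*, the gene for CP26 and the most abundant of these 6, had 231261, 156813 and 171634 in *rtnlb16-1* and 449847, 238511 and 499549 in Col-0 under LD. Col-0 library 48 was the low one there, only slightly above the *rtnlb16-1* library 50, and the difference of -1.04 (standard error 0.47, limma adjusted p = 0.141) did not pass. *LHCB7* (AT1G76570), a weakly expressed relative of the antenna genes, had 2137, 1463 and 1475 in *rtnlb16-1* and 1111, 1011 and 1633 in Col-0 under LD, and 590, 583 and 516 in *rtnlb16-1* and 525, 596 and 572 in Col-0 under CLL. Under LD library 49 of Col-0 overlapped the *rtnlb16-1* values, and the fold change was 0.44 (standard error 0.21, limma adjusted p = 0.152). Of the settings tried *LHCB7* was called higher, at 0.91, only with scaling by total assigned reads, where 4079 of all 30388 genes were. Under CLL the groups overlapped and the value of -0.0037 was above 0 with TMM, upper-quartile or total-read scaling and in edgeR. *LHCB4.3* was lower in every *rtnlb16-1* library of both regimes (-0.88 under LD and -0.85 under CLL, limma adjusted p = 0.0176 and 0.0697) and did not pass the test.

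The LHCI genes encode the antenna belt of PSI, and 1 of the 6, *LHCA6*, was called lower by limma under LD, and 0 under CLL. edgeR and DESeq2 called all 6 under LD, and 2 and 4 under CLL. *LHCA6* (AT1G19150), which with LHCA5 connects PSI to the NDH complex, had 5795, 3465 and 3631 in *rtnlb16-1* and 11248, 14350 and 12594 in Col-0 under LD, and 3751, 3816 and 2450 in *rtnlb16-1* and 4063, 5579 and 5032 in Col-0 under CLL. The groups were far apart under LD and close under CLL, with log2 fold changes of -1.60 (standard error 0.24, limma adjusted p = 0.00028) under LD and -0.57 (standard error 0.24, limma adjusted p = 0.234) under CLL, and the LD call was kept without any 1 library. *LHCA4*, the most abundant of the 6, had 246512, 180077 and 201022 in *rtnlb16-1* and 498326, 421611 and 535631 in Col-0 under LD, and 70224, 72009 and 66249 in *rtnlb16-1* and 131179, 192479 and 209948 in Col-0 under CLL. No *rtnlb16-1* library reached a Col-0 library, and the differences were -1.22 (standard error 0.43, limma adjusted p = 0.0609) under LD and -1.33 (standard error 0.43, limma adjusted p = 0.118) under CLL. For *LHCA1* the values were 158286, 121532 and 146544 in *rtnlb16-1* and 300210, 489364 and 313060 in Col-0 under LD, and 35891, 37630 and 39465 in *rtnlb16-1* and 60785, 88448 and 104461 in Col-0 under CLL. Here too the groups stood apart without passing the test, -1.34 (standard error 0.39, limma adjusted p = 0.0219) under LD and -1.13 (standard error 0.39, limma adjusted p = 0.133) under CLL. *LHCA2*, *LHCA3* and *LHCA5* lay at -1.13, -1.11 and -0.83 under LD and at -0.96, -0.92 and -0.45 under CLL, and none passed.

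Of the 12 nuclear PSI subunit genes, 8 were called lower in *rtnlb16-1* by limma under LD: *PSAD1*, *PSAD2*, *PSAE1*, *PSAE2*, *PSAG*, *PSAH1*, *PSAH2* and *PSAO*. Their medians were -1.36 under LD and -0.89 under CLL, where 0 were called and all 12 were lower at an unadjusted p under 0.05. edgeR called 12 under LD and 6 under CLL, and DESeq2 12 and 7. *PSAH2* (AT1G52230), whose protein sits where LHCII docks to PSI, had 17758, 14897 and 14393 in *rtnlb16-1* and 53653, 47021 and 70799 in Col-0 under LD, and 14120, 13920 and 10020 in *rtnlb16-1* and 16742, 28683 and 27484 in Col-0 under CLL. In *rtnlb16-1* the values of the regimes nearly met, while in Col-0 every LD value was well above every CLL value, and the differences were -1.85 (standard error 0.28, limma adjusted p = 0.000265) under LD and -0.91 (standard error 0.28, limma adjusted p = 0.0879) under CLL. Its copy *PSAH1* was called at -1.11 under LD (limma adjusted p = 0.00951), and in only 2 of the 12 fits without 1 library. Under LD *PSAG* was called in 4 of these fits, *PSAE2* in 6, *PSAD1* in 11, and *PSAD2*, *PSAE1*, *PSAH2* and *PSAO* in all 12. *PSAO*, a further subunit on the LHCII side, had 59955, 51695 and 60152 in *rtnlb16-1* and 159546, 196024 and 229780 in Col-0 under LD, and 36445, 38082 and 29450 in *rtnlb16-1* and 44459, 79152 and 87039 in Col-0 under CLL. The groups did not overlap, at -1.76 (standard error 0.35, limma adjusted p = 0.00221) under LD and -0.97 (standard error 0.35, limma adjusted p = 0.155) under CLL. *PSAD2*, a copy of the subunit that docks ferredoxin, had 16495, 16714 and 19046 in *rtnlb16-1* and 45551, 70496 and 50827 in Col-0 under LD, and 10754, 10421 and 8407 in *rtnlb16-1* and 12681, 22779 and 24857 in Col-0 under CLL. Its LD values in *rtnlb16-1* were close together and far below Col-0, at -1.65 (standard error 0.28, limma adjusted p = 0.000746), with -0.98 (standard error 0.28, limma adjusted p = 0.0734) under CLL. *PSAE1*, on the same stromal face, had 20023, 15950 and 21487 in *rtnlb16-1* and 45011, 57182 and 72595 in Col-0 under LD, and 12944, 13092 and 9649 in *rtnlb16-1* and 15798, 28976 and 26940 in Col-0 under CLL. It differed by -1.59 (standard error 0.29, limma adjusted p = 0.00125) under LD and -0.97 (standard error 0.29, limma adjusted p = 0.0847) under CLL, again without overlap. The ratio of *PSAD1* over *PSAD2* was 3.27, 2.42 and 2.82 in *rtnlb16-1* and 2.58, 2.42 and 2.45 in Col-0 under LD, and 2.88, 3.01 and 2.92 in *rtnlb16-1* and 3.04, 2.61 and 2.21 in Col-0 under CLL, with overlap in both regimes. *PSAE1* and *PSAE2* fell by 1.59 and 1.31 on the log2 scale under LD, and *PSAE1* over *PSAE2* was 1.71, 1.51 and 1.79 in *rtnlb16-1* and 2.16, 1.85 and 2.06 in Col-0 under LD, without overlap. Under CLL that ratio was 1.681, 1.576 and 1.547 in *rtnlb16-1* and 1.721, 1.989 and 1.684 in Col-0, without overlap. *PSAF*, which docks plastocyanin, *PSAK*, *PSAL* and *PSAN* lay between -1.37 (*PSAK*) and -0.98 (*PSAN*) under LD and did not pass, although no library of *rtnlb16-1* reached Col-0.

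Among the 11 PSII genes, limma called 4 lower under LD: *PSBO2*, *PSBQ1*, *PSBQ2* and *PSBTN*. The medians were -1.25 under LD and -0.62 under CLL, where limma and edgeR called 0, DESeq2 called 1 (*PSBW*) and 4 were lower at an unadjusted p under 0.05. *PSBQ2* (AT4G05180) encodes an extrinsic protein of the oxygen-evolving complex and had 26382, 32234 and 27854 in *rtnlb16-1* and 101391, 60976 and 119689 in Col-0 under LD, and 28926, 29559 and 22734 in *rtnlb16-1* and 27712, 60648 and 66567 in Col-0 under CLL. Col-0 was uneven in both regimes, with library 48 low under LD and library 65 low and inside the *rtnlb16-1* range under CLL. The log2 fold changes were -1.66 (standard error 0.37, limma adjusted p = 0.00484) under LD and -0.84 (standard error 0.37, limma adjusted p = 0.247) under CLL. Its LD call was kept in 2 of the 12 fits without 1 library, that of *PSBQ1* in 3 and that of *PSBO2* in all 12. *PSBO2* (AT3G50820), a copy of the manganese-stabilizing protein, had 35010, 28842 and 29926 in *rtnlb16-1* and 88491, 92259 and 90723 in Col-0 under LD, and 28613, 29764 and 21335 in *rtnlb16-1* and 25734, 44938 and 42579 in Col-0 under CLL. Its Col-0 LD values were tighter than those of any other member in that group (coefficient of variation 2.09%), no *rtnlb16-1* LD value came near them, and under CLL the groups overlapped. The differences were -1.54 (standard error 0.29, limma adjusted p = 0.00159) under LD and -0.48 (standard error 0.29, limma adjusted p = 0.42) under CLL. The main copy *PSBO1* lay at -1.02 under LD (limma adjusted p = 0.062), and *PSBO1* over *PSBO2* was 3.35, 3.46 and 3.83 in *rtnlb16-1* and 2.198, 2.97 and 2.33 in Col-0 under LD. Under CLL it was 2.38, 2.41 and 2.62 in *rtnlb16-1* and 2.84, 2.42 and 2.48 in Col-0, with overlap. *PSBTN*, a small PSII subunit, had 48118, 23859 and 44047 in *rtnlb16-1* and 69775, 129789 and 118478 in Col-0 under LD, and 22801, 24463 and 19792 in *rtnlb16-1* and 33189, 46421 and 40076 in Col-0 under CLL. Library 51 was the low one of *rtnlb16-1* and library 47 that of Col-0, the groups stood apart, and the call at -1.47 (standard error 0.34, limma adjusted p = 0.00663) was kept in only 1 of the 12 fits without 1 library. *PSBR*, the most abundant PSII member, had 315059, 133990 and 297062 in *rtnlb16-1* and 338607, 857042 and 654200 in Col-0 under LD. The spread was wide, *rtnlb16-1* library 50 lay just below Col-0 library 47, and -1.31 (standard error 0.54, limma adjusted p = 0.102) did not pass. *PSBS*, the sensor of energy-dependent quenching, had the smallest difference of the 11, -0.78 (standard error 0.31, limma adjusted p = 0.0946) under LD. *PSBP1*, *PSBW*, *PSBX* and *PSBY* lay between -1.54 (*PSBP1*) and -0.97 (*PSBY*) without passing.

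Among carriers and ATP synthase, log2 fold changes under LD lay between -2.197 (*ATPD*) and -0.16 (*FD1*), and 5 of the 9 genes were called lower by limma: *PETE1*, *PETE2*, *FNR1*, *ATPC1* and *ATPD*. Their medians were -1.13 under LD and -0.43 under CLL, where limma and edgeR called 0, DESeq2 1 (*PETE1*) and 1 was lower at an unadjusted p under 0.05. *ATPD* (AT4G09650), the delta subunit of the chloroplast ATP synthase, had 13520, 14784 and 16269 in *rtnlb16-1* and 68169, 45250 and 101725 in Col-0 under LD, and 22685, 22492 and 16176 in *rtnlb16-1* and 19721, 44218 and 36832 in Col-0 under CLL. Under LD every *rtnlb16-1* value was far below Col-0, whose library 49 was highest, while under CLL library 65 of Col-0 lay inside the *rtnlb16-1* range. The log2 fold changes were -2.197 (standard error 0.35, limma adjusted p = 0.000443) under LD and -0.65 (standard error 0.35, limma adjusted p = 0.346) under CLL, and the interaction was -1.54 (standard error 0.49, limma adjusted p = 0.118). *PETE2*, the main plastocyanin gene, had 75573, 50516 and 66490 in *rtnlb16-1* and 197357, 172924 and 285277 in Col-0 under LD, and 73799, 74170 and 50796 in *rtnlb16-1* and 79242, 134815 and 119023 in Col-0 under CLL. In *rtnlb16-1* the values of both regimes overlapped, and the differences from Col-0 were -1.75 (standard error 0.39, limma adjusted p = 0.00476) under LD and -0.73 (standard error 0.39, limma adjusted p = 0.343) under CLL. *PETE1*, the minor plastocyanin, had 4030, 3614 and 4530 in *rtnlb16-1* and 10626, 14713 and 10437 in Col-0 under LD, and 4569, 4610 and 3722 in *rtnlb16-1* and 5889, 8406 and 8244 in Col-0 under CLL. The highest *rtnlb16-1* value of either regime, 4610, was below the lowest Col-0 value, 5889, with -1.54 (standard error 0.21, limma adjusted p = 0.000116) under LD and -0.79 (standard error 0.21, limma adjusted p = 0.0467) under CLL. *FNR1*, a leaf ferredoxin-NADP+ reductase, had 14789, 19425 and 15213 in *rtnlb16-1* and 35859, 40497 and 44059 in Col-0 under LD, and 24053, 24858 and 15783 in *rtnlb16-1* and 18395, 32473 and 32197 in Col-0 under CLL. The groups stood apart under LD only, at -1.29 (standard error 0.29, limma adjusted p = 0.00485), with -0.34 (standard error 0.29, limma adjusted p = 0.577) under CLL. The LD calls of *ATPD* and *PETE1* were kept in all 12 fits without 1 library, that of *PETE2* in 6 and those of *FNR1* and *ATPC1* in 4 each. *FNR2*, the copy of *FNR1*, overlapped between genotypes in both regimes (-0.57 under LD and 0.15 under CLL, limma adjusted p = 0.213 and 0.817). *FNR1* over *FNR2* was 1.54, 1.34 and 1.88 in *rtnlb16-1* and 1.84, 3.22 and 2.96 in Col-0 under LD, with overlap, and 1.14, 1.15 and 1.12 in *rtnlb16-1* and 1.56, 1.66 and 1.59 in Col-0 under CLL, without overlap. *FD1*, the minor leaf ferredoxin, was another gene with overlapping groups under LD, 32546, 18769 and 23999 in *rtnlb16-1* and 20594, 28345 and 35020 in Col-0, while the main gene *FD2* had 48788, 35288 and 50080 in *rtnlb16-1* and 77460, 107587 and 77603 in Col-0. *FD1* over *FD2* was 0.667, 0.532 and 0.479 in *rtnlb16-1* and 0.266, 0.263 and 0.451 in Col-0 under LD, without overlap. Under CLL it was 0.364, 0.371 and 0.273 in *rtnlb16-1* and 0.318, 0.277 and 0.222 in Col-0, with overlap. *FD1* and *LHCB1.1* change sign to 0.30 and 0.22 under LD when scaled by total assigned reads, without passing the test. *PETC*, the Rieske protein of the cytochrome complex, lay at -0.64 under LD and -0.43 under CLL and did not pass.

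Between light regimes most of the genes were higher under LD than under CLL. In *rtnlb16-1* limma called 8 of the 52 higher (2.37% of all genes were called higher) and 0 lower (3.48% of all genes were called lower): *LHCA1*, *LHCB1.1*, *LHCB1.2*, *LHCB1.4*, *LHCB2.1*, *LHCB2.2*, *LHCB7* and *PSAG*. edgeR called 24 higher (4.48% of all genes) and *FNR2* lower (6.55% of all genes), and DESeq2 28 higher (5.47% of all genes). In Col-0 limma called 21 higher (2.5% of all genes) and 0 lower (4.01% of all genes), edgeR 42 (4.43%) and DESeq2 43 (5.17%). At an unadjusted p under 0.05 limma had 1 lower in *rtnlb16-1* and 0 lower in Col-0. All LD libraries lay above all CLL libraries for 36 genes in *rtnlb16-1* (15.3% of all genes) and for 48 in Col-0 (11.3% of all genes). The median log2 fold change was 0.84 in *rtnlb16-1*, against -0.09 for all genes, and 1.35 in Col-0, against -0.05 for all genes. With total-read scaling these medians were 0.47 and 0.75 and the all-gene medians -0.34 and -0.50. That scaling called 7 and 8 members, and 336 and 254 of all 30388 genes higher. With libraries 68 and 69 averaged, 2 genes were called in *rtnlb16-1* (*LHCB2.2* and *LHCB7*) and 10 in Col-0. Of all 30388 genes, 226 and 474 were called higher there. Fits of only the 6 libraries compared called 0 members in either genotype. They called 134 of all genes higher in *rtnlb16-1* and 10 in Col-0, so a count of 0 members says little. Without 1 library, 190 to 1078 of all genes were called higher in *rtnlb16-1* and 258 to 769 in Col-0. Among the members, leaving out 1 library gave 2 to 9 calls in *rtnlb16-1*: 2 without *rtnlb16-1* CLL 68 or 69, 3 without *rtnlb16-1* LD 50, 4 without *rtnlb16-1* LD 52 or CLL 70, and 5 without Col-0 LD 47 or Col-0 CLL 66 or 67. In Col-0 it gave 3 to 23 calls: 3 without Col-0 CLL 65, 5 without *rtnlb16-1* CLL 68 or 69, 6 without Col-0 LD 48 or Col-0 CLL 67, 7 without Col-0 LD 49 or Col-0 CLL 66, 9 without *rtnlb16-1* CLL 70 and 13 without *rtnlb16-1* LD 52.

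Trimeric LHCII had the widest gap between regimes, with medians of 2.01 in *rtnlb16-1* and 2.13 in Col-0. *LHCB1.1* had 535561, 255356 and 477571 under LD and 52301, 55122 and 68460 under CLL in *rtnlb16-1*, and 373608, 642467 and 454970 under LD and 117794, 131382 and 161400 under CLL in Col-0. No other member had as large a difference between regimes in *rtnlb16-1*, 2.79 (standard error 0.48, limma adjusted p = 0.00167), with 1.82 (standard error 0.48, limma adjusted p = 0.0216) in Col-0. *LHCB2.2* differed by 2.37 in *rtnlb16-1* and 2.36 in Col-0 (limma adjusted p = 0.00028 and 0.000296). *LHCB2.3* differed by 1.11 in *rtnlb16-1* and 2.31 in Col-0, with an interaction adjusted p from limma of 0.0984. *LHCB7* was higher under LD in both genotypes, by 1.56 in *rtnlb16-1* and 1.12 in Col-0, and both values passed limma. At the other end, carriers and ATP synthase had medians of -0.08 in *rtnlb16-1* and 0.65 in Col-0, and none of their 9 genes was called in either genotype by limma. PSI genes had medians of 0.80 in *rtnlb16-1* and 1.41 in Col-0, PSII genes 0.67 in *rtnlb16-1* and 1.25 in Col-0, LHCI genes 1.21 in *rtnlb16-1* and 1.41 in Col-0, and *LHCB4* to *LHCB7* 1.28 in *rtnlb16-1* and 1.29 in Col-0. *LHCB4.3* and *FNR2* were below 0 in both genotypes, at -0.15 and -0.84 in *rtnlb16-1* and -0.12 and -0.12 in Col-0. Each of these 2 comparisons shares its LD libraries with the genotype comparison under LD and its CLL libraries with that under CLL. The comparisons of regimes are therefore not independent of those of genotypes.

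**Figure D5:**
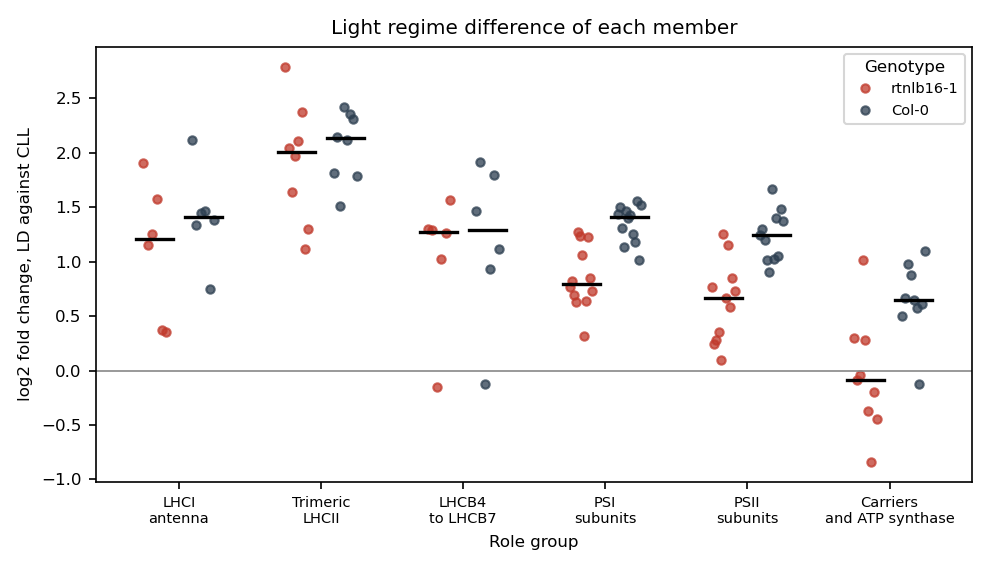
Log2 fold change of LD against CLL (y axis) for each detected gene (points) by role group (x axis), in *rtnlb16-1* (left of each pair, red) and Col-0 (right, dark). Lines are medians, 2.01 and 2.13 for trimeric LHCII and -0.08 and 0.65 for carriers and ATP synthase.

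Other genes of the pathway were taken from lists, each to be read against all genes tested, where limma called 6.18% of all genes lower and 6.67% higher under LD, and 0.731% lower and 0.846% higher under CLL. The shares were 8.21% lower and 7.69% higher under LD and 2.26% lower and 2.15% higher under CLL with edgeR, and 8.67% lower and 8.22% higher under LD and 2.36% lower and 1.87% higher under CLL with DESeq2. Of 20 genes of the Calvin cycle, limma called 6 lower and 0 higher in *rtnlb16-1* under LD and 0 under CLL, with medians of -1.12 and -0.38. edgeR called 13 lower and DESeq2 15 under LD, and both called 0 higher under LD and 0 in either direction under CLL. The most changed were *RBCS1B* (-3.02), a Rubisco small subunit, *CP12-2* (-1.95), which regulates the cycle, *GAPA2* (-1.67), a glyceraldehyde-3-phosphate dehydrogenase, and *RPI3* (-1.56), a ribose-5-phosphate isomerase. Of 10 genes for import, insertion and phosphorylation of antenna proteins and for chlorophyll b, limma called 2 lower and 0 higher under LD. It called 0 under CLL. edgeR called 3 lower and DESeq2 4 under LD, and both called 0 under CLL. The 2 called by limma were *CAO* (-1.14), which makes chlorophyll b, and *LTD* (-1.100), which hands antenna proteins to the signal recognition particle of the stroma. *CPSRP43*, a chaperone of antenna proteins, was higher under LD than under CLL in *rtnlb16-1* (1.02) and in Col-0 (1.295). Of 22 further thylakoid and electron carrier genes, root forms included, 19 were tested. Of these, limma called 6 lower and 1 higher under LD, and 0 lower and 1 higher under CLL. edgeR called 12 lower and 1 higher under LD and DESeq2 11 and 1, and each called 1 lower and 2 higher under CLL. *CURT1B* (-1.58) and *CURT1C* (-1.28), which bend grana margins, and *PPL2* (-1.56) fell under LD, and *FD3* (2.74), the ferredoxin of roots, rose. *RFNR1*, the ferredoxin-NADP+ reductase of roots, rose under CLL (1.53).

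Of 18 regulators of chloroplast genes, limma called 3 lower and 2 higher in *rtnlb16-1* under LD, and 0 lower and 1 higher under CLL. Among all genes limma called 6.18% lower and 6.67% higher under LD, and 0.731% lower and 0.846% higher under CLL. edgeR and DESeq2 each called 5 lower and 2 higher under LD, and under CLL edgeR called 0 lower and 1 higher and DESeq2 1 and 1. *GNC* (-1.28), a GATA factor that promotes greening, and *PIF1* (-1.24), a repressor of chlorophyll synthesis, fell under LD. *BBX22* (1.58), a B-box factor of light signalling, rose under LD, and *CGA1*, the sister gene of *GNC*, rose under LD (1.19) and under CLL (2.03). The fifth, *GLK2* (-0.96), named here after its value was seen, is an activator of antenna genes and fell under LD. *GLK1*, its partner, was at -0.70 under LD and -0.80 under CLL and did not pass (limma adjusted p = 0.0423 and 0.0692). Between regimes *GLK2* was higher under LD than under CLL, by 1.16 in *rtnlb16-1* and 1.65 in Col-0, as was *GUN4*, a cofactor of chlorophyll synthesis, by 1.77 and 1.55.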

How the data were processed

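RNA of mature *Arabidopsis* leaves was sequenced in 12 libraries. Per the labels, reads were aligned with STAR to TAIR10 and counted with HTSeq. The deposited values are a signal: the authors scaled each library's counts by its DESeq2 size factor. Whole reads were recovered for 100% of the values above 0 (relative tolerance 1e-06), giving 25954730 to 44747661 assigned reads per library. Whether counting used strand is not given in the sources used here.

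Each of the 30388 genes above 0 in at least 1 library was tested with limma 3.58.1 (trend) on log2(value + 1) in 1 fit over 4 groups. Fold changes on this scale understate those of low genes. P-values were Benjamini-Hochberg adjusted over all genes tested, with calls at an adjusted p under 0.01. edgeR 4.0.16 and DESeq2 1.42.0 were run on the recovered reads as alternatives, with other pseudocounts, filters, scalings, thresholds and sets of libraries. Scripts were tested on simulated data. In the fit over 4 groups, limma p-values set a group difference against the spread between samples within all 4 groups together.

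The members and the gene lists were chosen with earlier results of these data known. Values in every library were given for the up to 4 members with the largest log2 fold change under LD per role group, among those called in any comparison, most abundant, in a named pair of copies or of a sign against their group. Up to 4 called genes per other list were named. Positions and upstream bases came from TAIR10.1, matched by gene ID.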

Additional observations from a re-analysis of the deposited data

How the results depend on the processing

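Counts of members called depended on the setting more than their direction did. In the order LD between genotypes, CLL between genotypes, LD against CLL in *rtnlb16-1* and LD against CLL in Col-0, the counts were 39, 4, 21 and 36 with only genes of at least 10 in at least 3 libraries, and 0, 2, 0 and 0 in fits restricted to the libraries being compared. Of the 20053 genes passing that filter, 2079 and 272 were called lower between genotypes, and 828 and 929 higher between regimes. Of all 30388 genes, the restricted fits called 182 and 203 lower between genotypes, and 134 and 10 higher between regimes. With libraries 68 and 69 averaged the member counts were 15, 0, 2 and 10. The all-gene counts there were 1445 and 84 lower, and 226 and 474 higher. With edgeR the member counts were 46, 19, 25 and 42, and with DESeq2 48, 24, 28 and 43. At an adjusted p under 0.05 they were 38, 5, 20 and 37, and the share of all genes was not counted. Under CLL 2 members were called with a pseudocount of 0.5, 2 with TMM scaling and 3 with total-read scaling. Of all genes, 208, 225 and 153 were called lower there. In *rtnlb16-1* 5 members were called between regimes with a pseudocount of 5, where 716 of all genes were called higher. In Col-0 8 were called with total-read scaling, where 254 of all genes were called higher. For the interaction edgeR and DESeq2 each called 1. Without 1 library the member counts ranged from 12 to 24, 0 to 2, 2 to 9 and 3 to 23, and were 0 for the interaction. The all-gene ranges were 1171 to 1575 and 48 to 193 lower, and 190 to 1078 and 258 to 769 higher. Scaling by total assigned reads, chosen after seeing the data, moved the medians of the members to -0.84, -0.61, 0.47 and 0.75, and that of the interaction to -0.23. Without 1 library the medians ranged from -1.49 to -1.11, -1.06 to -0.74, 0.73 to 0.91 and 1.18 to 1.48, and from -0.58 to -0.27 for the interaction. The causes of these shifts were not tested. A filtered or reduced fit also holds fewer genes or libraries. Of 2288 alternatives for single members, 2016 kept direction and side of the threshold, 143 lost a call, 116 gained one and 13 changed sign. The sign changes concerned *LHCB1.1* under LD (0.216 with total-read scaling, -0.453 to 0.0814 without 1 library, above 0 without *rtnlb16-1* LD 51) and *FD1* under LD (0.303 with total-read scaling, -0.365 to 0.0316 without 1 library, above 0 without *rtnlb16-1* LD 51 or Col-0 LD 49). They also concerned *FNR2* under CLL (-0.0988 to 0.351 without 1 library, below 0 without Col-0 CLL 65) and *LHCB7* under CLL. *LHCB7* was at 0.00879 with TMM, 0.0206 with upper-quartile and 0.228 with total-read scaling, at 0.00993 with edgeR, and at -0.0551 to 0.0577 without 1 library, above 0 without *rtnlb16-1* CLL 70 or Col-0 CLL 66 or 67. None of these 4 members was called there in the reported fit. No paired analysis was possible because the library numbers differ between groups.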
